A study of Homo sapiens with 4 samples.

Results

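The short-arm tips of 14 human chromosomes, numbers 1 to 12, 16 and 20, were examined for BRPF3 peaks. A tip was taken as the first 3 Mb of the chromosome in hg19, and a peak belonged to it when its centre lay below position 3000000. This held for 344 of 11532 mimosine peaks, 376 of 13431 HU peaks and 376 of 13160 asynchronous peaks, or 1096 of 38123 peaks in the 3 lists together. The members were chosen by position alone, so density, width, score and presence in the lists were not used by the rule.

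The peaks came from chromatin immunoprecipitation followed by sequencing (ChIP-seq) of RKO, an established human colon carcinoma line, with a rabbit antibody raised against BRPF3. The mimosine cells had been held in 0.5 mM mimosine for 22 h. The HU cells had received the same mimosine block, a release of 3 h and then 3 mM hydroxyurea (HU) for 1 h 30 min. The asynchronous cells were untreated and grew under normal conditions. A rabbit IgG library from the HU condition served as control for all 3 lists, so only the HU list had a control of its own condition. The description field of the BRPF3 libraries names related family members, and the title and antibody fields were followed. Each condition had 1 library. No difference between conditions, or between tips and the rest of their chromosomes, was therefore tested, since peaks along a chromosome are not replicates. Ranges in parentheses after shares, medians and ratios are 95% intervals and cover counting error over peaks or regions only. They treat peaks as independent, though peaks cluster, and leave out the spread between chromosomes. The number of reads behind the lists is unknown.

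BRPF3 is a scaffold subunit of histone acetyltransferase complexes whose catalytic subunit belongs to the MYST family, and its complex with KAT7 (HBO1) acetylates histone H3 and has been linked to replication origin activity. Mimosine arrests cells near the start of DNA replication, and HU stalls replication by depleting nucleotides. Subtelomeres lie just inside the telomere repeats. Their outermost stretches consist of blocks duplicated between chromosome ends, and many open within a short distance into unique sequence that is often rich in genes and GC. The tip of the short arm of chromosome 16 carries the alpha-globin cluster, that of chromosome 11 an imprinted gene cluster, and that of chromosome 4 the region lost in Wolf-Hirschhorn syndrome. The tip of chromosome 3 holds few genes, among them the large neuronal adhesion genes CHL1, CNTN6 and CNTN4. No peak was assigned to a gene, because no annotation of hg19 was used here.

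BRPF3 peaks were more than 2 times as dense in the tips as in the rest of the same chromosomes. The tips held 8.19 mimosine, 8.95 HU and 8.95 asynchronous peaks per Mb, against 3.60, 4.17 and 4.07 peaks per Mb over the remaining 2193 Mb. The ratio was 2.28 (2.04 to 2.54) in mimosine, 2.15 (1.93 to 2.38) in HU and 2.20 (1.98 to 2.44) in asynchronous cells. The tips made up 1.88% of the length and held 4.18% of the mimosine, 3.95% of the HU and 4.05% of the asynchronous peaks of these chromosomes. Peaks covered 1.85% of tip sequence in mimosine, 2.92% in HU and 2.66% in asynchronous cells, against 0.789%, 1.4% and 1.25% of the rest.

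The density was uneven among the tips, and 4 chromosomes carried most of it. Chromosome 16 led with 85 mimosine, 85 HU and 88 asynchronous peaks in its tip. Chromosome 1 had 55, 56 and 54 tip peaks in the same order of lists, chromosome 11 had 45, 51 and 50, and chromosome 4 had 40, 42 and 41. Together these 4 tips held 65.4% of mimosine, 62.2% of HU and 62.0% of asynchronous tip peaks. Chromosomes 7 and 20 followed with 25 to 33 peaks per list. Chromosomes 5, 6, 8, 9, 10 and 12 had 8 to 22 peaks per list.

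At the other extreme stood chromosomes 2 and 3. The tip of chromosome 2 held 2 mimosine, 2 HU and 4 asynchronous peaks. The tip of chromosome 3 held 0 peaks in each list, and its first region began at 3.17 Mb, where all 3 lists had a peak. Both tips were sparser than the rest of their own chromosomes, which had 3.23 to 3.78 peaks per Mb.

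Compared with its own chromosome, the tip was the denser part on 9 of 14 chromosomes in the mimosine list, 9 in the HU list and 8 in the asynchronous list. Chromosome 4 showed the highest ratio, 6.36 in mimosine, 5.72 in HU and 5.65 in asynchronous cells, on the chromosome whose remainder was the sparsest of the 14, with 2.10, 2.45 and 2.42 peaks per Mb. Chromosome 16 followed at 5.40, 4.95 and 5.20. Over the 14 chromosomes the median ratio was 1.38 in mimosine, 1.38 in HU and 1.58 in asynchronous cells, below the pooled ratio. Without chromosomes 16, 1, 11 and 4, a grouping made after the counts were seen, the pooled ratio was 1.15 in mimosine, 1.18 in HU and 1.22 in asynchronous cells. The other 10 tips then held 3.97, 4.73 and 4.77 peaks per Mb, against 3.44, 4.02 and 3.89 in the rest of those 10 chromosomes.

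Each chromosome was also cut into consecutive 3 Mb windows, the tip being the first. On chromosome 16 the tip was the densest of 30 windows in all 3 lists, and on chromosome 4 the densest of 63. The fullest other window of chromosome 4 held 23 mimosine, 20 HU and 20 asynchronous peaks. The tip of chromosome 1 stood at place 2 of 83 windows in each list, and that of chromosome 11 at place 3 of 44, which it shared with another window in the mimosine list. Chromosome 2, by contrast, had its tip at place 67 in mimosine, 69 in HU and 60 in asynchronous cells, of 81 windows. On chromosomes 6, 8, 9, 10 and 12 the tip stood at places 11 to 28 of 44 to 56 windows.

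**Figure D1:**
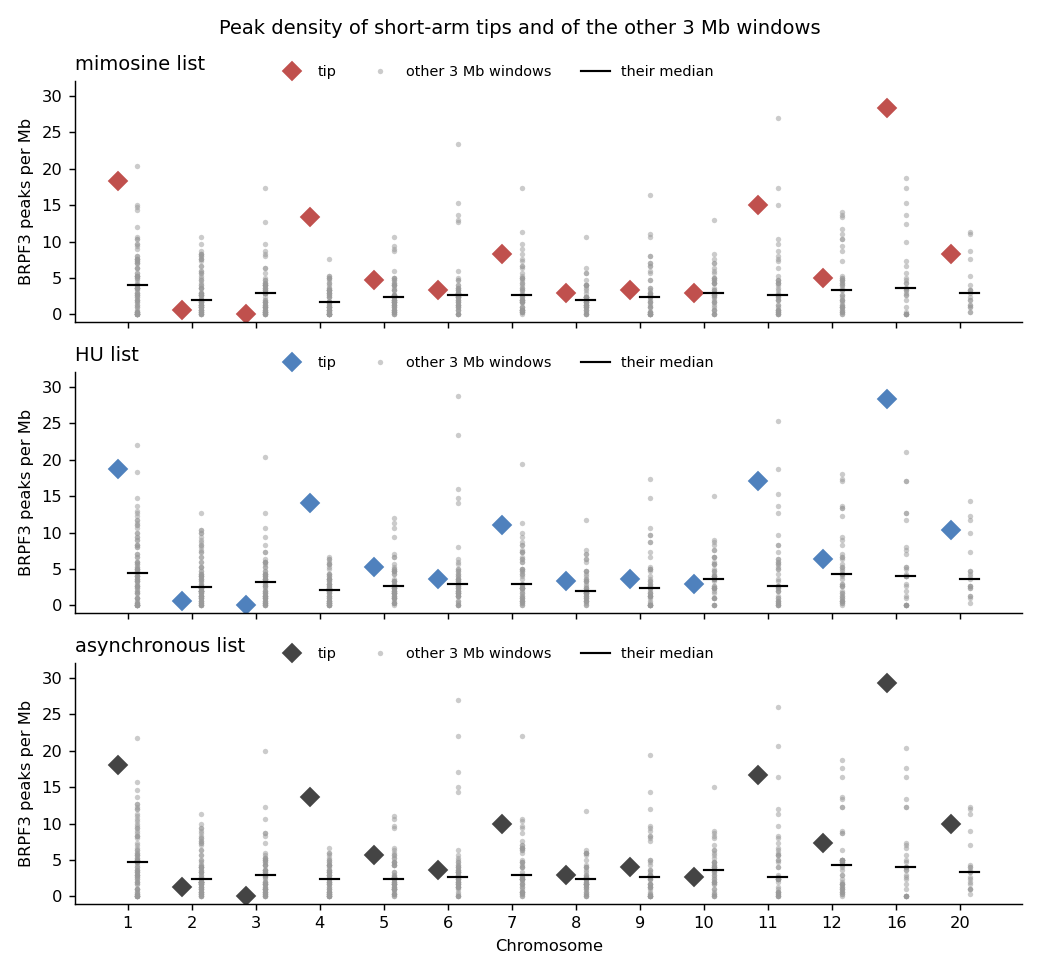
BRPF3 peaks per Mb (vertical axis) on 14 chromosomes (horizontal axis), with a panel for each list. Diamonds are the short-arm tips, grey points the other 3 Mb windows of the same chromosome and black lines their medians; the tips of chromosomes 16 and 4 lie above every other window of their chromosome, and the tip of chromosome 3 lies at 0.

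Within the tips, density did not decline evenly with distance from the chromosome end. The densest of the 0.5 Mb steps was 0.5 to 1 Mb, with 11.9 mimosine, 13 HU and 13 asynchronous peaks per Mb. The outermost step, 0 to 0.5 Mb, held 7.71, 8 and 8.29 peaks per Mb, and the step from 2.5 to 3 Mb held 8.29, 9.29 and 9.14. Past the limit, from 3 to 6 Mb, density was 4.45 in mimosine, 5.21 in HU and 4.90 in asynchronous cells. From 12 to 15 Mb it was 2.64, 3.24 and 3.12.

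Single chromosomes shaped this profile. On chromosome 11, 21 mimosine, 21 HU and 20 asynchronous peaks lay between 0.5 and 1 Mb, and no other 0.5 Mb step of that tip held more than 12. Chromosome 16 was dense at both edges of its tip, with 32 to 36 peaks per Mb below 1 Mb in the 3 lists and 36 to 40 between 2.5 and 3 Mb, and a lower middle of 14 to 20 between 1 and 2 Mb. Its density stayed at 17.3 in mimosine, 17.0 in HU and 17.7 in asynchronous cells from 3 to 6 Mb, and was 1, 1.33 and 1.67 from 6 to 9 Mb. The dense stretch of chromosome 16 thus ran past the 3 Mb limit. On chromosomes 1 and 7 the outermost 0.5 Mb was nearly empty, with 1 peak per list on chromosome 1 and 0 on chromosome 7. In the 10 chromosomes without 16, 1, 11 and 4, the step from 2 to 2.5 Mb was the sparsest of the tip, with 2.40 mimosine, 2.80 HU and 2.80 asynchronous peaks per Mb.

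**Figure D2:**
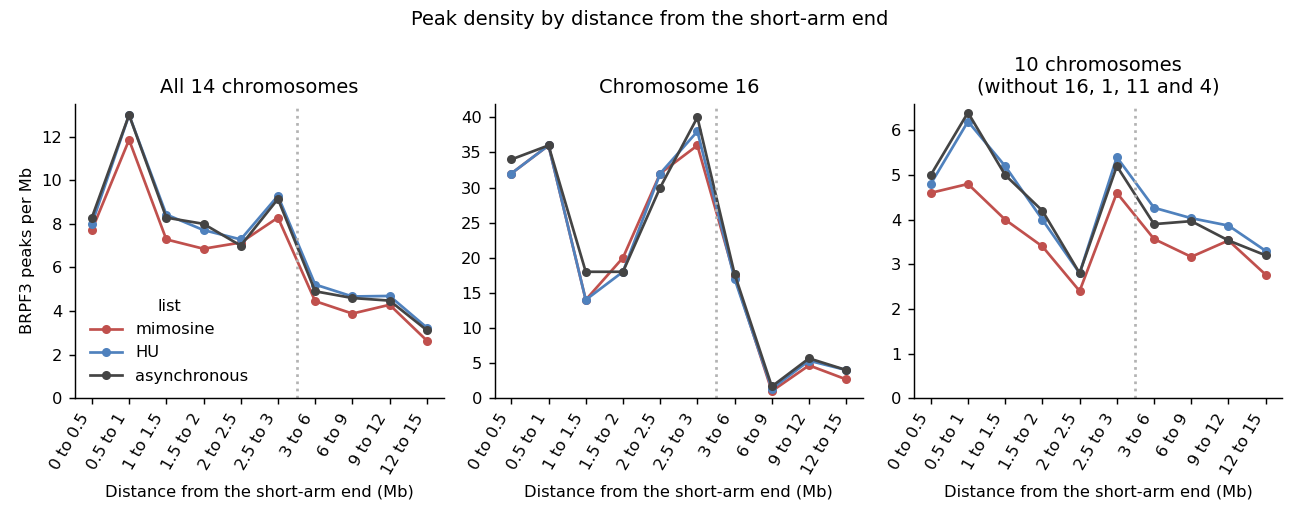
BRPF3 peaks per Mb (vertical axis, a scale of its own in each panel) by distance from the short-arm end in Mb (horizontal axis, steps of 0.5 Mb up to 3 Mb and of 3 Mb beyond the dotted line), for all 14 chromosomes, for chromosome 16 and for 10 chromosomes without 16, 1, 11 and 4. Lines are the 3 lists; the mean density of the 14 tips peaks between 0.5 and 1 Mb, and chromosome 16 has 1 to 1.67 peaks per Mb from 6 to 9 Mb.

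The outermost region called in all 3 lists lay close to the chromosome end on several chromosomes. On chromosome 9 it was chr9:27007-29946, with a peak of 1586 bp in mimosine, 2940 bp in HU and 2637 bp in asynchronous cells. On chromosome 1 it was chr1:27031-30170, with peaks of 2330, 2937 and 3098 bp. These 2 regions start at nearly the same distance from their ends. The 2 positions lie in blocks that chromosome ends are known to share, where a read cannot be placed on a single chromosome with certainty, and the handling of such reads is not given in the sources used here.

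Chromosomes 2, 16 and 12 followed. The region chr2:45480-47078 had peaks of 630 bp in mimosine, 1450 bp in HU and 1323 bp in asynchronous cells. The region chr16:72326-74082 had peaks of 884, 1458 and 1757 bp and low scores of 81.7, 91.7 and 258. The region chr12:73423-77008 had peaks of 2824, 3121 and 3586 bp with scores of 1377, 2301 and 2018. The score is the authors' own and is compared only within a list. From the form of the lists it was read as 10 times the negative base-10 logarithm of the peak caller's p-value.

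Other tips began further in. They were chr4:123632-127276, chr10:178813-183715, chr11:205692-211980, chr5:216786-221662, chr20:269503-272167, chr6:290925-294469 and chr7:555935-560364. The chromosome 10 region was among the best supported of all, with the tied score of 3100 in all 3 lists and widths of 3547 bp in mimosine, 4903 bp in HU and 4626 bp in asynchronous cells. On chromosome 8 the outermost shared region had peaks of 2651, 4420 and 4028 bp. In all 13 outermost regions the mimosine peaks covered less sequence than the asynchronous one, by the summed width of 2 peaks on chromosome 6. The HU peak was wider than the asynchronous one in 9. Of regions with 1 peak per list in the whole series, 98.2% had a mimosine peak narrower than the asynchronous one. The HU peak was the wider in 75.1% of them, so both counts are near the background. Farther out than the shared region there was an asynchronous peak alone on chromosomes 16 and 20, and on chromosome 9 a region starting at 10.7 kb that was called in HU and asynchronous cells.

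Tip peaks stood higher in the score order than peaks in the pooled rest of the same chromosomes. Their median score was 467 in mimosine, 795 in HU and 829 in asynchronous cells, against 278, 558 and 590 in the rest of the same chromosomes. As a percentile within its own list, the median tip peak stood at 64.4 in mimosine, 62.0 in HU and 62.5 in asynchronous cells, against 50.2, 51.1 and 51.7 for the rest. The density ratio of tips to rest was 1.59, 1.8 and 1.76 in the lowest of 3 score groups of each list and 3.06, 2.78 and 2.86 in the highest, for mimosine, HU and asynchronous cells. On chromosomes with 5 or more tip peaks, which were 12 in each list, the tip had the higher median score on 8 in mimosine, 8 in HU and 10 in asynchronous cells. Chromosomes 5 and 10 showed it at modest density, with medians of 911 and 819 in mimosine, 1423 and 1876 in HU, and 1141 and 1241 in asynchronous cells. Chromosomes 6, 8, 9 and 20 went the other way in the mimosine list, with 182, 362, 215 and 374 in the tip against 244, 408, 341 and 425 in the rest. In the HU list chromosomes 8 and 9 did so, with 566 and 381 against 634 and 685. Chromosomes 6 and 7 were lower there by little, with 458.5 and 559 against 458.6 and 567. In the asynchronous list chromosomes 6 and 9 had the lower median in the tip.

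The highest-scoring tip peak of each list was wider than the median tip peak of that list. In the asynchronous list ties went to the widest peak, so its width there follows from the choice. In the mimosine list the top score, 3135, fell in chr11:837669-845170, where the peak was 4567 bp wide, beside 7502 bp in HU and 6798 bp in asynchronous cells. In the HU list the top score, 3218, fell in chr1:1241310-1246767, with peaks of 3887 bp in mimosine, 5420 bp in HU and 4883 bp in asynchronous cells. In the asynchronous list 37 tip peaks stood at 3100, which ties them, and the widest of these lay in chr16:2198203-2208165. Scores at or above 3100 do not resolve an order, so these are examples and not a ranking. Such scores were carried by 3.78% of mimosine, 11.4% of HU and 9.84% of asynchronous tip peaks, against 3.00%, 7.56% and 7.81% of the rest.

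Peak widths in the tips were close to those elsewhere. Over all scores the median was 2061 bp (1943 to 2236 bp) in mimosine, 3040 bp (2854 to 3289 bp) in HU and 2856 bp (2683 to 3036 bp) in asynchronous tips. In the rest it was 1923 bp (1891 to 1950 bp), 2981 bp (2939 to 3021 bp) and 2730 bp (2700 to 2759 bp). The intervals of tips and rest overlapped in each list. On the 12 chromosomes with 5 or more tip peaks, the tip had the larger median on 7 in mimosine, 7 in HU and 8 in asynchronous cells.

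At like score the tip peaks had the smaller medians, mostly within the intervals. In all 9 combinations of list and score group the tip median was below that of the rest, with ratios of 0.960 to 0.991 in mimosine, 0.909 to 0.960 in HU and 0.850 to 0.939 in asynchronous cells. The gap was clearest in the lowest score group of the asynchronous list, at 1323 bp (1235 to 1451 bp) in the tips and 1556 bp (1526 to 1589 bp) in the rest. In the highest group the values were 3016 bp against 3142 bp in mimosine, 4325 bp against 4504 bp in HU and 3803 bp against 4067 bp in asynchronous cells. In 8 of the 9 combinations the intervals of tips and rest overlapped, the exception being the lowest asynchronous group.

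**Figure D3:**
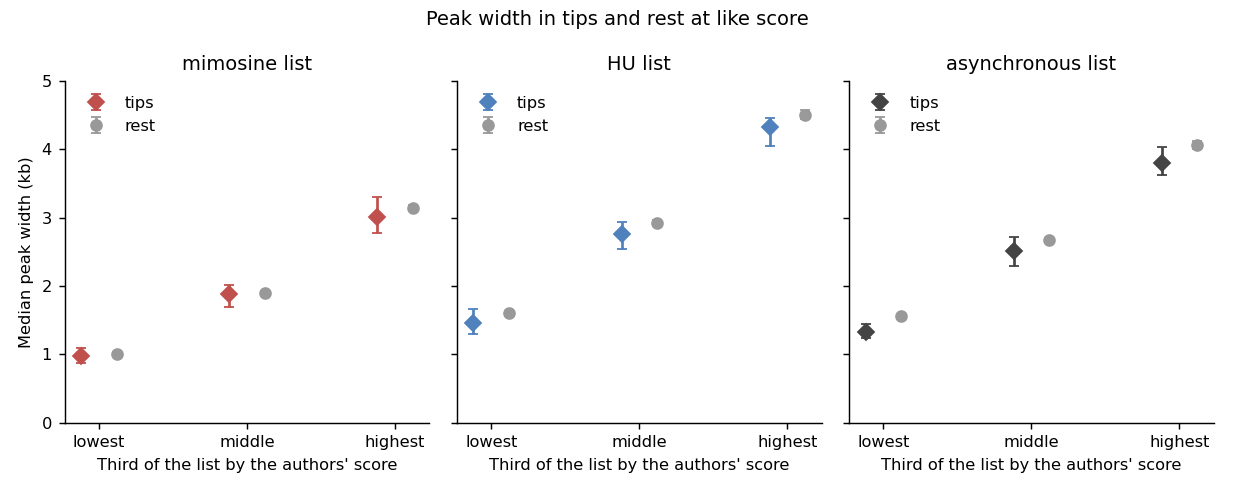
Median peak width in kb (vertical axis) in the lowest, middle and highest of 3 score groups (horizontal axis), with a panel for each list. Coloured diamonds are short-arm tips, grey points the rest of the same chromosomes, and bars 95% intervals of the median; the diamond is the lower of each pair, and the bars overlap in 8 of the 9 pairs.

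No tip peak was wider than 10 kb in any list, against 22 mimosine, 130 HU and 94 asynchronous peaks in the rest, or 0.279%, 1.42% and 1.05% of them. At those shares, 0.959 mimosine, 5.35 HU and 3.96 asynchronous tip peaks of that width would be counted, so a count of 0 is near the background in the mimosine list. Peaks of 5 kb or more made up 2.03% of mimosine, 13.6% of HU and 6.65% of asynchronous tip peaks, against 3.89%, 14.2% and 10.6% of the rest.

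The 5 widest tip regions lay on 5 chromosomes. The widest was chr16:2198203-2208165, spanning 9963 bp, where HU cells had a peak of 9842 bp, asynchronous cells one of 9562 bp and mimosine cells 2 peaks that together covered 69.7% of the region. At chr20:2630875-2640191 all 3 lists had a single peak, of 6144 bp in mimosine, 7825 bp in HU and 9015 bp in asynchronous cells. At chr10:1089095-1098297 the HU peak of 9203 bp spanned the region, while 2 mimosine peaks summed to 4970 bp and the asynchronous peak measured 3734 bp. At chr12:858779-867501 2 mimosine peaks summed to 6308 bp beside an HU peak of 8254 bp and an asynchronous peak of 8723 bp. At chr4:2932854-2941539 the widths were 5954, 8419 and 6845 bp.

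Most tip regions were called in all 3 conditions. Overlapping peaks merged into 398 tip regions, of which 306 (76.9%, 72.4 to 80.9%) held a peak of every list, against 71.8% (70.9 to 72.7%) of the 9555 regions in the rest and 71.5% over the whole series. A further 45 tip regions (11.3%, 8.37 to 14.8%) were called in HU and asynchronous cells and not in mimosine cells, against 13.9% of the rest. HU cells alone held 23 (5.78%) and asynchronous cells alone 22 (5.53%), against 8.58% and 4.98% of the rest. Mimosine cells alone held 0 of the 398, for which the exact interval reaches 0.923%, and made up 0.283% of the rest. The surplus of shared regions was uneven among the chromosomes with dense tips. All 3 lists held 78 of 89 tip regions on chromosome 16 and 35 of 42 on chromosome 4. Chromosomes 1 and 11 had 44 of 58 and 41 of 55. Without chromosome 16 the share over the remaining tips was 73.8%. On chromosomes 16, 1, 11 and 4, 198 of 244 tip regions (81.1%, 75.7 to 85.9%) were in all 3 lists, against 72.2% of the rest, and on the other 10 chromosomes 108 of 154 (70.1%, 62.2 to 77.2%), against 71.7% of the rest.

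**Figure D4:**
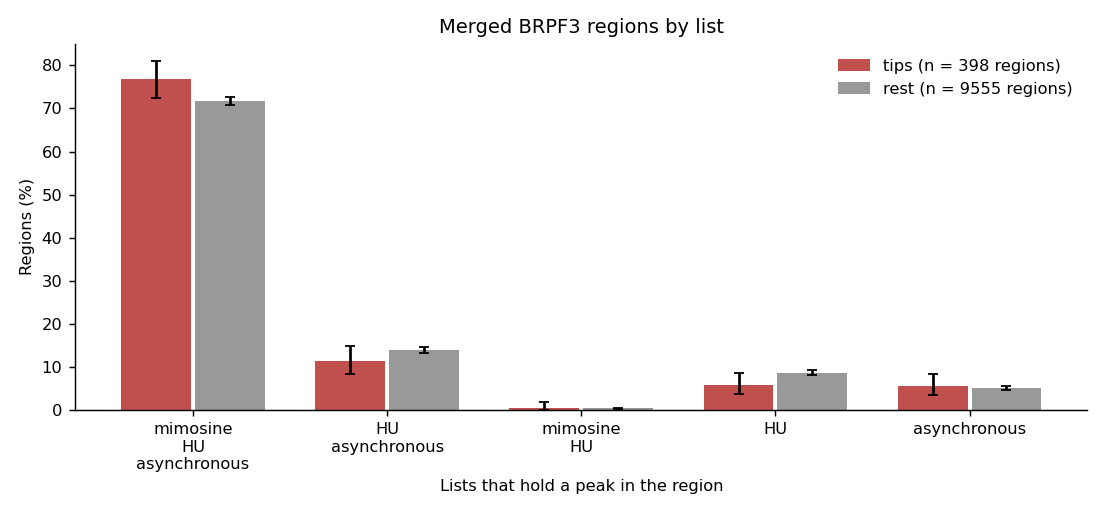
Share of merged BRPF3 regions in percent (vertical axis) by the lists that hold a peak (horizontal axis), for the 398 tip regions on the left of each pair and the 9555 regions of the rest on the right. Bars on the columns are exact 95% intervals; 76.9% of tip regions and 71.8% of the rest were called in all 3 lists, and the 2 classes with no tip region are left out.

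Presence in the mimosine list followed the score of the peak. Of 376 HU tip peaks, 308 (81.9%, 77.6 to 85.7%) overlapped a mimosine peak by at least 1 bp, against 75.6% (74.7 to 76.5%) in the rest. That left 68 HU tip peaks, or 18.1%, without a mimosine peak, where the whole HU list had 24.6%. Of 376 asynchronous tip peaks, 307 (81.6%, 77.4 to 85.4%) overlapped a mimosine peak, against 78.0% (77.1 to 78.9%) in the rest, and 69 did not, where the whole asynchronous list had 22.6% without one. Without chromosomes 16, 1, 11 and 4 the shares were 76.1% (68.2 to 82.8%) of HU and 75.5% (67.6 to 82.3%) of asynchronous tip peaks, against 75.1% and 78.2% in the rest of the other 10 chromosomes, so the asynchronous share then lay below that of the rest. In the lowest score group, 34.3% (25.2 to 44.4%) of HU tip peaks and 31.6% (22.4 to 41.9%) of asynchronous tip peaks had a mimosine peak, against 28.5% and 34.9% of the rest. In the middle group the shares were 99.1% and 96.4% in the tips, against 96.4% and 95.9%. In the highest group all 167 HU and all 169 asynchronous tip peaks had one, as did 99.97% of the rest in both lists. In the lowest and middle groups the value of the rest lay inside the interval of the tips in both lists.

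In the other direction, all 344 mimosine tip peaks (98.9 to 100%) overlapped an HU peak, where 0.468% of the whole mimosine list did not. All but 5 of them overlapped an asynchronous peak, with 1.14% of the whole list lacking one. HU and asynchronous tips shared most peaks, since 351 of 376 HU tip peaks (93.4%, 90.3 to 95.7%) had an asynchronous partner and 354 of 376 asynchronous tip peaks (94.1%, 91.3 to 96.3%) had an HU partner. The whole lists had 8.82% of HU peaks without an asynchronous peak and 5.46% of asynchronous peaks without an HU peak, beside 25 and 22 peaks in the tips.

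The share of tip peaks with a mimosine peak varied between tips. On chromosome 16, 78 of 85 HU and 79 of 88 asynchronous tip peaks had a mimosine peak, or 91.8% and 89.8%, against 82.6% and 83.7% in the rest of that chromosome. On chromosome 4 the shares were 85.7% and 85.4%, against 70.2% and 71.0%. Chromosome 12 had 13 of 19 HU and 13 of 22 asynchronous tip peaks with a mimosine peak, and chromosome 9 had 7 of 11 and 7 of 12, which on both chromosomes was a smaller share than in the rest. These 4 chromosomes are named after their values were seen.

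Tip regions without a mimosine peak had low scores, which was not particular to tips. Of HU peaks without a mimosine peak, 67 of 68 in the tips and 2117 of 2227 in the rest were in the lowest score group. The 45 regions of HU and asynchronous cells stood at a median percentile of 11.2 in the HU list and 10.8 in the asynchronous list. Ordered by the lower of their percentiles in both lists, the leading one was chr5:611436-616793, with an HU peak of 5358 bp and score 431 and an asynchronous peak of 3825 bp and score 361. It was followed by chr4:1684428-1686693, with an HU peak of 2266 bp and score 277 and an asynchronous peak of 2026 bp and score 369. The next was chr9:2156964-2160055, with an HU peak of 3092 bp and score 225 and an asynchronous peak of 2362 bp and score 389. By the asynchronous score alone the order of these regions is the opposite. The leading region of HU cells alone was chr11:705752-707240, 1489 bp wide with a score of 172. The leading region of asynchronous cells alone, chr11:1356806-1358256, was 1451 bp wide with a score of 213. Regions called in mimosine and HU cells and not in asynchronous cells numbered 2 in the tips (0.503%). They made up 0.314% of the rest and 0.349% of the whole series. The 2 tip regions were chr4:2746640-2748827 and chr11:1567735-1568845, and their mimosine peaks scored 56.8 and 52.8. These 2 are named after their values were seen.

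At tip regions held by 1 peak in each list, the mimosine peak was the narrower, but by less than elsewhere. Across 272 such regions, mimosine peaks had a median of 2274 bp, HU peaks 3334 bp and asynchronous peaks 3066 bp. The mimosine peak was narrower than the asynchronous one in 269 of 272 (98.9%), where 98.2% of such regions in the whole series showed this, and narrower than the HU peak in all 272, where the series had 99.9%. The median ratio of mimosine to asynchronous width was 0.750 (0.719 to 0.770) in the tips and 0.696 (0.691 to 0.701) in 5915 regions of the rest. For mimosine to HU it was 0.691 (0.669 to 0.714) in the tips and 0.632 (0.628 to 0.637) in the rest. Ratios of mimosine to asynchronous width below 0.5 were found in 15 tip regions (5.51%), against 14.1% of the rest.

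The ratio was also set out by score. Among regions of the lowest, middle and highest asynchronous score group, the ratio of mimosine to asynchronous width was 0.625 (0.507 to 0.776), 0.703 (0.676 to 0.734) and 0.787 (0.770 to 0.799) in the tips. In the rest it was 0.580 (0.564 to 0.597), 0.658 (0.649 to 0.667) and 0.758 (0.752 to 0.764). The intervals did not overlap in the middle and highest groups, and they overlapped in the lowest, which had 25 tip regions. Of 11 chromosomes with 5 or more such tip regions, 8 had the higher ratio in the tip. Chromosomes 7, 8 and 20 had the lower, at 0.705, 0.658 and 0.719 in the tip against 0.712, 0.714 and 0.737 in the rest. On chromosomes 16, 1, 11 and 4 together the ratio was 0.772 (0.732 to 0.788) in tips and 0.690 (0.677 to 0.7) in the rest. On the other 10 it was 0.731 (0.689 to 0.761) in tips and 0.699 (0.693 to 0.705) in the rest, where the intervals overlapped.

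**Figure D5:**
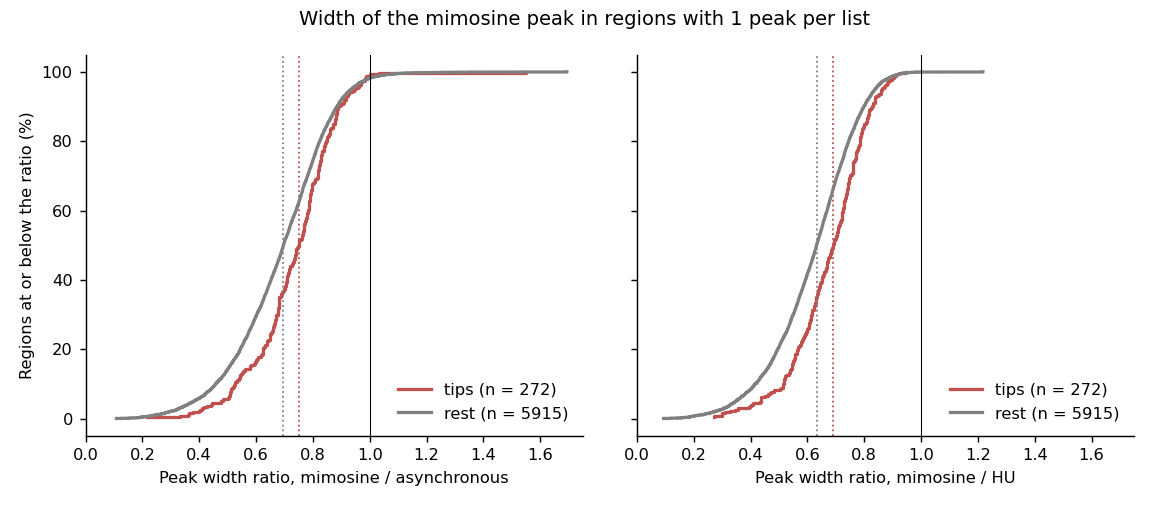
Cumulative share in percent (vertical axis) of regions with 1 peak per list at or below a given width ratio (horizontal axis), for mimosine over asynchronous width on the left and mimosine over HU width on the right. Red lines are 272 tip regions, grey lines 5915 regions of the rest, dotted lines their medians and the solid line a ratio of 1; the tip medians of 0.750 and 0.691 lie to the right of 0.696 and 0.632.

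Single regions spanned a wide range of ratios. The lowest was 0.217 at chr7:1076048-1076850, with peaks of 162 bp in mimosine, 598 bp in HU and 748 bp in asynchronous cells and a low score in each list. Next came chr16:856671-858997 at 0.333, with 708, 2291 and 2126 bp, and chr16:2508716-2511074 at 0.361, with 641, 2359 and 1774 bp. The highest was 1.55 at chr11:566749-570058, where the mimosine peak of 2722 bp and the HU peak of 3310 bp exceeded an asynchronous peak of 1755 bp. At chr16:429542-433458 the ratio was 1.03, with 3111, 3917 and 3012 bp. At chr1:2157613-2164768 it was 1.001, with 6156, 7156 and 6148 bp and a score of 3100 in all 3 lists.

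In 201 of 272 tip regions (73.9%) the HU peak exceeded the asynchronous one in width, as did 75.1% over the whole series. The median ratio of HU to asynchronous width was 1.07 (1.05 to 1.09) in tips and 1.09 in the rest. Splitting in mimosine and HU cells was also near the background. Of the 306 tip regions in all 3 lists, mimosine cells had 2 or more peaks in 31 (10.1%, 6.99 to 14.1%), where the whole series had 11.9%. HU cells had 0 split tip regions, for which the exact interval reaches 1.198% and holds the 1.15% of the series. Asynchronous cells had 3 (0.980%, 0.203 to 2.838%), where the series had 2.81% and the rest 2.856%. The value of the series lay just inside this interval and that of the rest just outside it.

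Pooled over the tips, peaks lay closer to each other than elsewhere, but not on every chromosome. The median gap to the next peak was 32.9 kb in mimosine, 33.1 kb in HU and 34.4 kb in asynchronous tips, against 71.8, 66.5 and 68.9 kb in the rest. Gaps of 10 kb or less followed 26.5% of mimosine, 24.2% of HU and 22.9% of asynchronous tip peaks, against 19.2%, 15.4% and 15% in the rest. In the tip of chromosome 16 the median gap was 17.0 kb in mimosine, 15.9 kb in HU and 16 kb in asynchronous cells, and peaks covered 6.85%, 10.2% and 9.46% of it. The tips of chromosomes 2, 5, 8 and 9 had larger median gaps than the pooled rest in all 3 lists. On chromosome 9 they were 218 kb in mimosine, 146 kb in HU and 142 kb in asynchronous cells. The same held on chromosome 12 in mimosine cells, at 95.1 kb, and on chromosome 10 in HU and asynchronous cells, at 93.7 and 75.1 kb.

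The long-arm ends of the same chromosomes were as rich in peaks as the short-arm tips. They were taken as the last 3 Mb before the last peak of any list, so unlike the tips they start at a peak. The tips held 8.19 mimosine, 8.95 HU and 8.95 asynchronous peaks per Mb, against 8.95, 9.83 and 9.76 in the long-arm ends and 3.49, 4.06 and 3.95 between the ends. Widths differed more. Tip peaks had medians of 2061 bp in mimosine, 3040 bp in HU and 2856 bp in asynchronous cells, against 2458, 3520 and 3257 bp in the long-arm ends. Presence in the mimosine list was 81.9% of HU and 81.6% of asynchronous peaks in the tips, against 83.8% and 84.1% in the long-arm ends. Median scores were also higher in the long-arm ends, at 546 in mimosine, 906 in HU and 932 in asynchronous cells. The tips had 467, 795 and 829, and the stretch between the ends had 271, 544 and 580.

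At the 3 Mb limit, the last tip peaks of all 3 lists lay in chr6:2987807-2991877, with widths of 4062 bp in HU and 3941 bp in asynchronous cells and 2336 bp over 2 mimosine peaks. The first peaks outside lay in chr12:2998850-3001588, with 1417, 2725 and 2567 bp in mimosine, HU and asynchronous cells.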

How the data were processed

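The authors deposited 1 peak list for each of the 3 BRPF3 libraries, with the position of each peak and a score. The deposited score was read as 10 times the negative base-10 logarithm of the peak caller's p-value, from the form of the lists. Per the submitters' processing notes, Bowtie 0.12.8, SAMtools, MACS 1.4.0 and bedtools were used; their order and settings are not given in the sources used here. The notes name hg18 and hg19, and the last peaks of chromosome 16 lie past its end in hg18, so positions are given as hg19. Positions are counted from 1. Depth per library is unknown.

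Calculations ran in Python 3.11.15 with SciPy 1.17.1, NumPy 2.4.6 and pandas 2.3.3, and plots in matplotlib 3.10.9. Density was counted from position 1 to the last peak of any list on a chromosome, with assembly gaps included. Peaks overlapping by at least 1 bp were shared and were merged into regions, and a region belonged to a tip by its own centre. Score groups were 3 equal parts of each whole list. Intervals are exact Clopper-Pearson for shares, derived from these for density ratios, and binomial order statistics for medians. The density and overlap calculations were tested on simulated data. The members and named regions followed fixed rules, chosen with earlier results of these data known: the outermost shared region per chromosome, the top score per list, the 5 widest, the leading regions missing from lists and the extreme width ratios. No sequence of the peaks is shown, because no genome of their build was used.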

Additional observations from a re-analysis of the deposited data

How the results depend on the processing

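Alternatives were compared with the 95% interval of each value. For width ratios of tips to rest, it was the interval of the tip median divided by the median of the rest. The error of the rest was left out. Of 88 values, 57 stayed inside the interval without a change of direction. Another 25 moved outside it, and 6 width ratios turned below 1, inside or outside the interval. Values are given for mimosine, HU and asynchronous cells. The density ratio of tips to rest stayed above 1 throughout. It was 1.96, 1.87 and 1.87 with tips of 5 Mb, 2.90, 2.74 and 2.62 with the 5766 highest-scoring peaks of each list, 1.88, 1.82 and 1.85 without chromosome 16, and 1.15, 1.18 and 1.22 without chromosomes 16, 1, 11 and 4, the only alternative added after seeing the data. Counting length from the first peak gave 2.60, 2.45 and 2.51; by construction this leaves out the tip of chromosome 3, which has no peak. The median width ratio turned below 1 with those 5766 peaks (0.989, 0.935 and 0.965), in HU cells without chromosome 16 (0.991), and in HU and asynchronous cells without the 4 chromosomes (0.921 and 0.988). The share of HU and asynchronous tip peaks with a mimosine peak was 94.8% and 94.6% with 5766 peaks, 76.1% and 75.5% without the 4 chromosomes (75.1% and 78.2% in the rest), and 69.4% and 73.9% under a reciprocal overlap of 50%, where the rest had 56.3% and 63.7%. With a score of 100 or more the asynchronous share was 85.6%, and 82.1% of tip regions were in all 3 lists. The rest is not given under these score filters, so such rises are not shown to be particular to tips. In the whole lists, presence was 29.4% of HU and 35.9% of asynchronous peaks in the lowest score group, and 99.98% of both in the highest. Without the 4 chromosomes 70.1% of tip regions were in all 3 lists, against 71.7% in the rest. The mimosine to asynchronous width ratio was 0.780 with 5766 peaks. The cause of these shifts was not tested. Tips of 2 Mb, leaving out peaks wider than 10 kb, centres within 1 kb, merging within 1 kb, and a rest without its longest gap or its last 3 Mb moved no value outside its interval. No paired analysis was possible because each condition had 1 library.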
